A study of Mus musculus with 8 samples.

Results

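The genes described here encode the protein part of the mitochondrial ribosome, and they were followed in 4 normal mouse livers and 4 mouse liver tumours driven by human c-MYC. Members were the genes whose mouse symbol is Mrpl or Mrps followed by a number and, for some, a letter from a to c, measured by a probe set that carried 1 gene symbol. This gave 77 of the 19937 genes measured, of which 48 were named for the large subunit (Mrpl) and 29 for the small subunit (Mrps). Total RNA had been hybridised to Affymetrix Mouse Gene 1.0 ST arrays, 1 array per sample, and each value is a log2 intensity summarised over the probes of a probe set by RMA. The tumours carried human c-MYC overexpressed in the liver through the CEBPB-LAP promoter, with expression under doxycycline control, and were taken at the humane endpoint. The control livers were normal livers from matched mice. The sources used here do not state whether the controls carried the transgene or received doxycycline, nor the age, sex and strain of the mice. One further gene with a matching symbol, Mrpl53, shared its only probe set with Ccdc142 and was left out. Log2 changes are tumours minus controls throughout, so a log2 change of 1 is a 2-fold difference.

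The mitochondrial ribosome translates the few proteins encoded in mitochondrial DNA, all of them subunits of the respiratory chain and ATP synthase. Its own proteins are encoded in the nucleus, made in the cytosol and imported, so that it is assembled from nuclear-encoded proteins and mitochondrially encoded RNA. Some of its proteins descend from proteins of the bacterial ribosome, while others are found only in mitochondria. Liver cells hold many mitochondria, and MYC is widely described as an activator of genes for ribosomes and mitochondria.

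The 8 arrays had medians between 6.33 and 6.44. Mouse Myc did not pass the test, with 6.82 ± 0.66 in control livers and 7.04 ± 0.22 in tumours (mean ± SD, n = 4 each, limma adjusted p = 0.635). The transgene is human, and whether the mouse probe set detects it was not tested. Control liver 3 stood apart from the other 7 arrays in sex-linked genes, reading 11.89 for Xist and 3.46 for the Y-linked gene Eif2s3y, against at most 7.12 and at least 8.56 elsewhere. Without that array, 22 large-subunit and 13 small-subunit genes were higher in tumours, against 27 and 13 with all arrays. Leaving out any 1 of the 8 arrays gave 19 to 31 and 13 to 17, so a fall of this size was not particular to control liver 3. All 6 measured hepatocyte markers were present in both groups and lower in the tumours, with a list mean of 12.2 to 12.4 in controls and 11.02 to 11.54 in tumours. The labels do not say that the samples of a group came from separate mice, so the p-values rest on the spread among these arrays alone, which may be technical.

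Genes of both subunits were higher in the tumours. At an adjusted p of 0.05 (limma, Benjamini-Hochberg over all 19937 genes), 40 of the 77 members rose, or 51.9%, where 16.2% of all genes did. No member fell at that threshold, where 12.7% of all genes did, and none had a negative change at an unadjusted p below 0.05 either. In the large subunit 27 of 48 genes rose (56.25%), with a median log2 change over all 48 of 0.44 and quartiles of 0.30 and 0.72. In the small subunit 13 of 29 rose (44.8%), with a median of 0.57 over all 29 and quartiles of 0.08 and 0.76. The median over all genes was -0.04, with quartiles of -0.20 and 0.19. The rises were mostly smaller than 2-fold. A rise of at least 2-fold was called for 3 large-subunit and 4 small-subunit genes, 9.09% of the members beside 5.54% of all genes.

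The sign of the change was positive for 43 of the 48 large-subunit genes and 25 of the 29 small-subunit genes, whether or not they passed the threshold, or 88.3% of the members beside 44.1% of all genes. The 4 tumours exceeded all 4 controls for 37 members, 24 large and 13 small, while this held for 16.3% of all genes. They lay below all controls for no member, where this held for 13.9% of all genes, so that the groups were apart in either direction for 37 members and for 30.2% of all genes. The members were measured with a spread close to that of other genes, with a median SE of the log2 change of 0.14 against 0.12 over all genes. In RNA from whole tissue, a change in the number of cells of a type cannot be told apart from a change in RNA per cell.

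**Figure D1:**
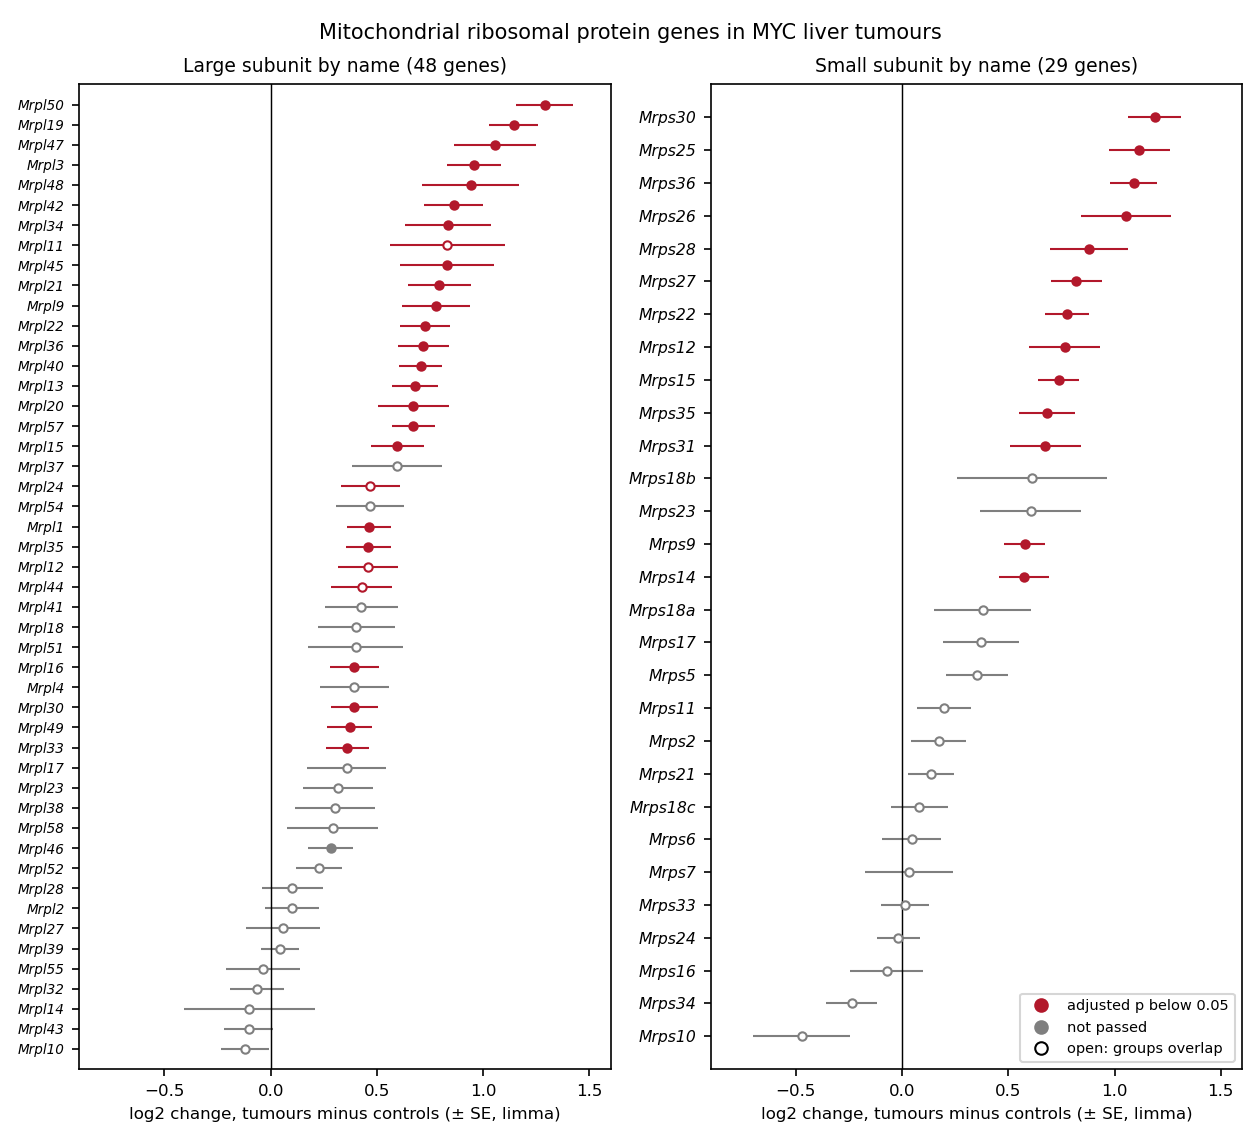
Log2 change (tumours minus controls, x axis) of each of the 48 large-subunit genes (left) and 29 small-subunit genes (right), with bars of ± 1 SE from limma; red marks an adjusted p below 0.05 and open points mark groups that overlap. The changes run from -0.12 (Mrpl10) to 1.29 (Mrpl50) in the large subunit and from -0.47 (Mrps10) to 1.19 (Mrps30) in the small subunit, with no gene called lower.

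Many members moved together, so their promoters were read for letters bound by known factors. RefSeq windows of 300 bases (build GRCm38.p6, 250 before to 50 after the start) were at hand for 68 of the 77 members, with 74 windows in all. The letters CACGTG, the E-box to which MYC binds with Max, are shown first, in capitals, with 27 bases before them, for a pair of members that rose (Mrpl36 and Mrpl20) and a pair that did not pass (Mrpl2 and Mrps18c). In Mrps18c the capitals also mark CTTCCGG, the reverse of the ETS core CCGGAAG described next.
Mrpl36, chr13:73330939-73330998, + strand: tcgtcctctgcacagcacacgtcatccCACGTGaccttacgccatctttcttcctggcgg
Mrpl20, chr4:155802818-155802877, + strand: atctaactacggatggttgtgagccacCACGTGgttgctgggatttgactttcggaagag
Mrpl2, chr17:46646063-46646122, + strand: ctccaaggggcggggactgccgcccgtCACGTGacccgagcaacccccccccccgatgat
Mrps18c, chr5:100798569-100798628, + strand: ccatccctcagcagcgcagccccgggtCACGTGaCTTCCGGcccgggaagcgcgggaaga
Only these and Mrpl37 had the E-box among the 68 members. It stood in 9.46% of member windows, with Mrpl2 counted in several overlapping windows, beside 8.24% for all tested genes and 7.15% for all promoters of this length. Counted by gene the order was the other way, with 1483 of 15613 tested genes and a smaller share of members, 5 of 68. Of these 5 genes 2 rose, with log2 changes from 0.08 to 0.72 and a median of 0.60. Of the 63 members without the E-box 33 rose, with a median of 0.43.

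The ETS core CCGGAAG, the letters bound by the ETS family to which the mitochondrial gene regulator GABP (NRF2) belongs, was the most frequent motif searched in the member windows. The stretches below show it, on either strand and in capitals, close to a start of 3 of the members with large rises. Mrpl48 had several starts, and only the window shown held the core. Its other windows, which lie upstream of that one, had no match.
Mrps26, chr2:130563697-130563756, + strand: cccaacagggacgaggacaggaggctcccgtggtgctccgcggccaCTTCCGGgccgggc
Mrpl3, chr9:105053208-105053267, + strand: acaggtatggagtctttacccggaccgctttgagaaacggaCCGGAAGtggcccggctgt
Mrpl48, chr7:100583132-100583191, - strand: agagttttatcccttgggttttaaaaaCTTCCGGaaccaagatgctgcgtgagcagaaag
It was found in 25 of 68 members and 33.8% of member windows (29.8% large, 40.7% small), beside 12.1% for all tested genes and 8.86% for all promoters. The median log2 change was 0.40 for the 25 genes with it, of which 11 rose, and 0.43 for the 43 without it, of which 24 rose. The YY1 core AAGATGG stood in 17.6% of member windows and 6.25% of those of all tested genes. The E-box variant CACGCG stood in 17.6% and 13.1%, the NRF1 core GCATGC in 12.2% and 8.59%, and the TATA box TATAAA in 6.76% and 11.5%. Motifs were counted on both strands and may overlap each other, as the letters of the YY1 and ETS cores can, and a match is only a run of letters.

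**Figure D2:**
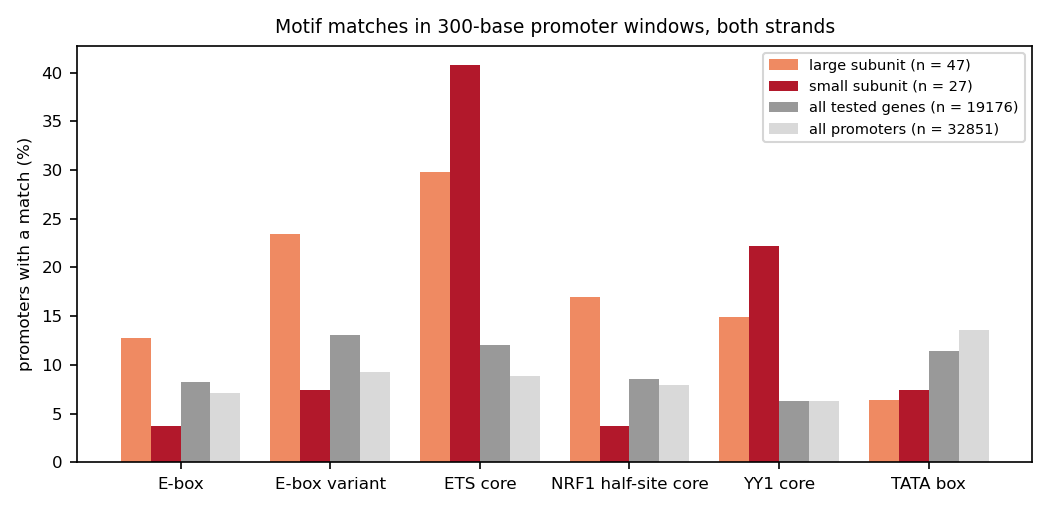
Share of 300-base promoter windows (y axis, percent) that hold each of 6 motifs (x axis) on either strand, for large-subunit genes (47 windows), small-subunit genes (27), all tested genes (19176) and all promoters (32851). The ETS core stands at 29.8% and 40.7% in the subunits and 12.1% in all tested genes. The axis label NRF1 half-site core stands for the letters GCATGC.

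Among large-subunit genes, Mrpl50, a mitochondrion-specific protein, rose most. It read 9.66, 9.16, 9.51 and 9.23 in control livers 1 to 4 and 10.78, 10.45, 10.68 and 10.81 in tumours 1 to 4. The groups did not overlap, and the rise was 2.45-fold (log2 change 1.29 with SE 0.13, limma adjusted p = 4.3e-05). Mrpl19, the counterpart of a bacterial protein at the interface of the subunits, read 7.11, 6.87, 7.15 and 7.23 in the controls and 8.39, 8.18, 8.32 and 8.04 in the tumours. All tumours lay well above all controls, a 2.21-fold rise (log2 change 1.14, SE 0.11).

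Mrpl47, a counterpart of a bacterial protein at the exit of the peptide tunnel, read 6.93, 6.77, 7.31 and 7.12 in the controls and 8.33, 7.96, 8.47 and 7.59 in the tumours. Tumour 4 was the lowest tumour, nearer to control liver 3 than the other tumours were, and the rise was 2.08-fold (log2 change 1.06, SE 0.19). A second Mrpl47 probe set changed by only 0.18, from 7.17 to 7.34, so the size of this rise depends on the probe set. The probe set used was the dimmer in controls (7.03) and had the higher mean over all arrays only through the tumours (8.09). The place of Mrpl47 among the 2-fold rises thus rests on a choice that the tumour values made. Mrpl3, which reaches toward the peptidyl transferase centre, read 7.44, 7.65, 7.70 and 7.37 in the controls and 8.63, 8.42, 8.70 and 8.24 in the tumours. These groups did not overlap either, with a log2 change of 0.96 (SE 0.13, adjusted p = 0.000231 in limma).

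Mrpl48, a mitochondrion-specific protein, read 7.90, 7.40, 8.16 and 8.44 in the controls and 9.22, 8.70, 9.19 and 8.55 in the tumours. Control liver 4 and tumour 4 were the nearest arrays, without overlap, and the log2 change was 0.94 (SE 0.23, adjusted p = 0.00994 in limma). Mrpl34, one of the smallest proteins of the bacterial large subunit, showed the same 2 arrays closest, with 7.82, 7.97, 7.79 and 8.22 in the controls and 9.29, 8.58, 8.98 and 8.28 in the tumours and a log2 change of 0.84 (SE 0.20). Mrpl42, also mitochondrion-specific, read 9.21, 9.49, 9.71 and 9.17 in the controls and 10.35, 10.08, 10.42 and 10.19 in the tumours, which is a log2 change of 0.86 (SE 0.14) with no overlap. Mrpl45, which tethers the ribosome to the inner membrane, read 6.78, 5.77, 6.73 and 6.18 in the controls and 7.33, 7.23, 7.38 and 6.84 in the tumours. Its controls were the more scattered group, and the log2 change was 0.83 (SE 0.22, adjusted p = 0.0166 in limma).

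**Figure D3:**
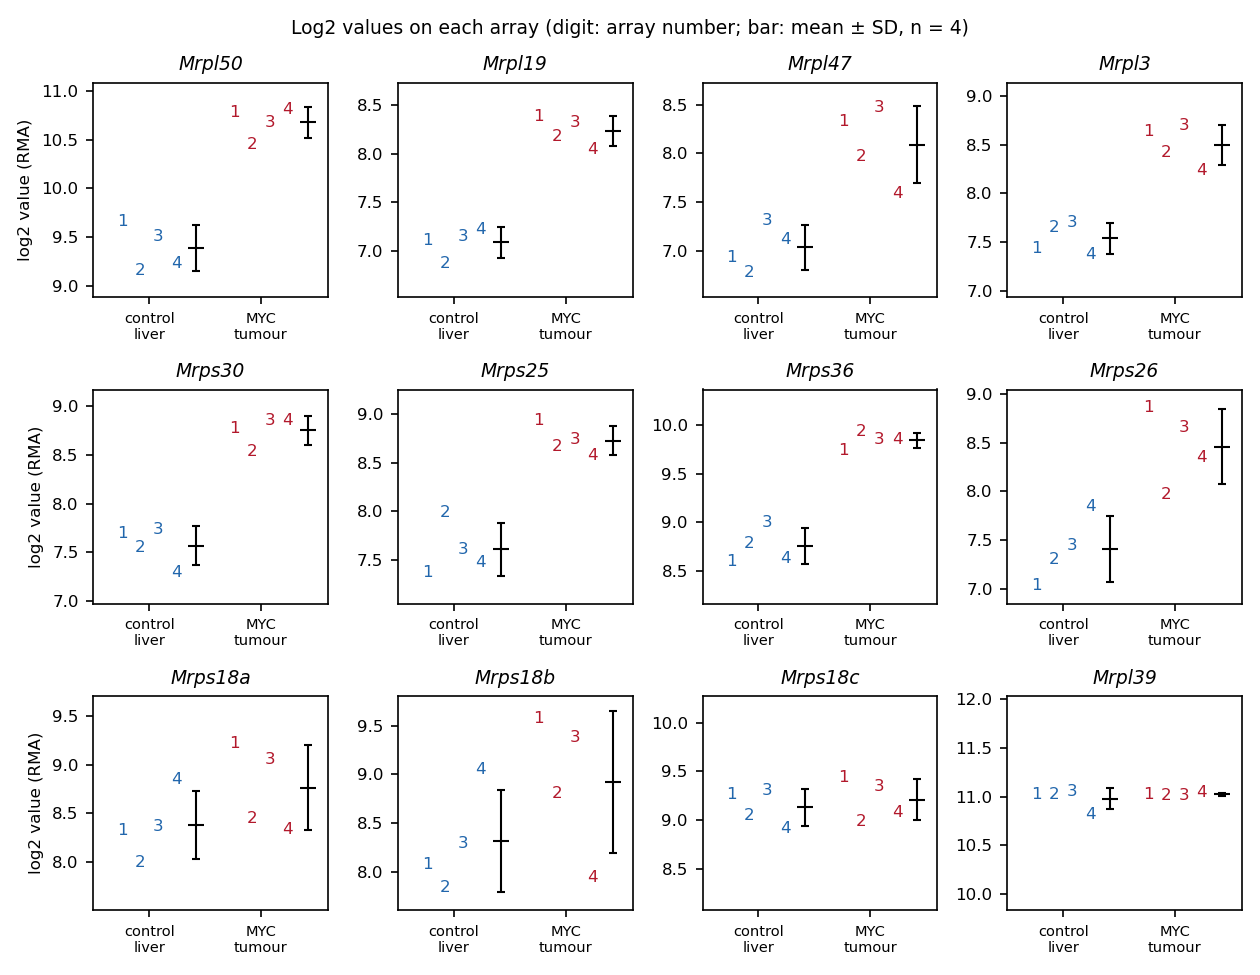
Log2 value (y axis) on each array for 12 members, with the digit giving the array number and the bar the mean ± SD of 4 arrays; each panel has its own range. The groups do not overlap in the upper 8 panels, from Mrpl50 to Mrps26, while they overlap for Mrps18a, Mrps18b, Mrps18c and Mrpl39.

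The other 19 large-subunit genes that rose had log2 changes between 0.36 (Mrpl33) and 0.83 (Mrpl11). They included Mrpl11 and Mrpl12, proteins of the stalk that receives translation factors, as well as Mrpl1, Mrpl9, Mrpl13, Mrpl15, Mrpl16, Mrpl20, Mrpl21, Mrpl22, Mrpl24, Mrpl30, Mrpl33, Mrpl35, Mrpl36, Mrpl40, Mrpl44, Mrpl49 and Mrpl57. In 4 of the called genes the groups overlapped. Mrpl11 read 8.32, 8.14, 8.29 and 8.85 in the controls and 9.75, 8.93, 9.71 and 8.52 in the tumours, with control liver 4 above tumour 4 (log2 change 0.83 with SE 0.27, limma adjusted p = 0.0426). In Mrpl24 and Mrpl12 control liver 4 was likewise above tumour 4, and in Mrpl44 it was above tumour 2. Mrpl11, Mrpl12, Mrpl16, Mrpl24, Mrpl30, Mrpl33, Mrpl44 and Mrpl49 each lost their call when some single arrays were left out, with adjusted p in limma of up to 0.130 (Mrpl44 without tumour 3).

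Of the 21 large-subunit genes that did not pass, most were still above zero. Mrpl37, a mitochondrion-specific protein, read 7.85, 7.94, 8.29 and 8.64 in the controls and 9.20, 8.52, 8.95 and 8.42 in the tumours, and its groups overlapped only through control liver 4 and tumours 2 and 4 (log2 change 0.60 with SE 0.21, limma adjusted p = 0.0599). Mrpl54 read 6.81, 6.58, 6.80 and 7.27 in the controls and 7.55, 7.45, 7.29 and 7.04 in the tumours (log2 change 0.47, adjusted p = 0.0516). Mrpl46 had the opposite standing, with all tumours above all controls but a change of only 0.28 (adjusted p = 0.0739). Mrpl41 (0.43), Mrpl18 (0.40), Mrpl51 (0.40), Mrpl4 (0.39), Mrpl17 (0.36), Mrpl23 (0.32), Mrpl38 (0.30), Mrpl58 (0.29), the peptidyl-tRNA hydrolase that frees stalled ribosomes, and Mrpl52 (0.23) had positive changes and overlapping groups. Second probe sets of Mrpl23, Mrpl41 and Mrpl51 gave 0.35, 0.26 and 0.43.

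For the other 9 (Mrpl2, Mrpl10, Mrpl14, Mrpl27, Mrpl28, Mrpl32, Mrpl39, Mrpl43 and Mrpl55) the log2 changes lay between -0.12 and 0.10. Mrpl39, a protein related to threonyl-tRNA synthetase, was the most closely measured of them, at 11.03, 11.03, 11.06 and 10.81 in the controls and 11.02, 11.01, 11.01 and 11.05 in the tumours. Its log2 change was 0.04, with a 95% interval of -0.16 to 0.24. Mrpl10, which carries the stalk, had a change of -0.12 with an interval of -0.37 to 0.13. The mean of Mrpl14 hid a wide scatter, with 7.45, 7.54, 7.56 and 8.66 in the controls and 8.25, 7.25, 8.06 and 7.26 in the tumours, so that control liver 4 was the highest of all 8 arrays. The interval for Mrpl14 ran from -0.78 to 0.58. Mrpl27 changed by 0.06 on one probe set and by -0.20 on the other.

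In the small-subunit list, Mrps30 rose most. Despite its name, its protein sits in the large subunit of the mammalian mitochondrial ribosome. It read 7.70, 7.55, 7.73 and 7.29 in the controls and 8.77, 8.54, 8.85 and 8.85 in the tumours, groups well apart, a 2.28-fold rise (log2 change 1.19 with SE 0.12, limma adjusted p = 4.22e-05). Mrps25, a mitochondrion-specific protein, read 7.37, 7.99, 7.61 and 7.47 in the controls and 8.93, 8.66, 8.74 and 8.57 in the tumours. The controls were more scattered than the tumours but lay below all of them, and the rise was 2.17-fold (log2 change 1.12, SE 0.14).

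Mrps36 read 8.60, 8.79, 9.0 and 8.62 in the controls and 9.74, 9.93, 9.85 and 9.85 in the tumours, the tightest of these tumour groups, with a rise of 2.13-fold (log2 change 1.09, SE 0.11). A second Mrps36 probe set gave 1.12. The Mrps36 protein has since been assigned to the oxoglutarate dehydrogenase complex, and without it 12 of 28 small-subunit genes rose. Mrps26 read 7.04, 7.30, 7.44 and 7.84 in the controls and 8.86, 7.97, 8.66 and 8.35 in the tumours. Control liver 4 came closest to tumour 2, without reaching it, and the rise was 2.08-fold (log2 change 1.05 with SE 0.21, limma adjusted p = 0.00337).

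Mrps28 read 8.80, 9.0, 8.80 and 9.39 in the controls and 10.18, 9.55, 10.15 and 9.63 in the tumours, again with control liver 4 highest among controls (log2 change 0.88, SE 0.18). Mrps27, a pentatricopeptide repeat protein, read 6.48, 6.56, 6.82 and 6.60 in the controls and 7.70, 7.35, 7.43 and 7.27 in the tumours, with no overlap and a change of 0.82 (SE 0.12). Mrps22, in which inherited variants cause mitochondrial disease, read 9.19, 9.47, 9.28 and 9.14 in the controls and 10.02, 9.98, 10.01 and 10.18 in the tumours. Its tumours lay close together above all controls, and the change was 0.78 (SE 0.10, adjusted p = 0.000213 in limma). Mrps12, the counterpart of a bacterial protein of the decoding centre, read 7.45, 7.59, 7.40 and 7.46 in the controls and 8.76, 8.21, 8.09 and 7.89 in the tumours. Tumour 1 was far above the other tumours, all of which still exceeded every control (log2 change 0.76, SE 0.17). The 5 further small-subunit genes that rose were Mrps9, Mrps14, Mrps15, Mrps31 and Mrps35, with changes between 0.57 and 0.74 and no overlap. The 13 small-subunit calls held in each of the 16 other settings tried, 8 of them leaving out 1 array each.

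Mrps18a, Mrps18b and Mrps18c descend from a single protein of the bacterial small subunit, and none of them passed. Mrps18a read 8.33, 8.0, 8.36 and 8.84 in the controls and 9.21, 8.45, 9.05 and 8.34 in the tumours (log2 change 0.38 with SE 0.23, limma adjusted p = 0.264). Mrps18b read 8.08, 7.84, 8.29 and 9.05 in the controls and 9.57, 8.81, 9.38 and 7.94 in the tumours (log2 change 0.61, SE 0.35, adjusted p = 0.247). In both genes tumours 1 and 3 were the highest arrays, while control liver 4 was above tumour 2 and tumour 4. Mrps18c read 9.26, 9.04, 9.31 and 8.91 in the controls and 9.44, 8.99, 9.34 and 9.07 in the tumours, with a change of 0.08 and a 95% interval of -0.22 to 0.38, so that its groups lay over each other.

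Of the other 13 small-subunit genes that did not pass, Mrps23 had the largest positive change. It read 6.69, 6.79, 6.81 and 7.12 in the controls and 8.08, 7.11, 7.76 and 6.88 in the tumours (log2 change 0.60 with SE 0.24, limma adjusted p = 0.0879), with tumours 1 and 3 high and tumours 2 and 4 no higher than control liver 4. Mrps17 (0.37), Mrps5 (0.35), Mrps11 (0.20), Mrps2 (0.17), Mrps21 (0.14) and Mrps16 (-0.07) overlapped between groups. Mrps10 had the lowest change of all members, -0.47 (SE 0.23, adjusted p = 0.164), with 7.45, 7.20, 6.87 and 7.02 in the controls and 6.97, 6.79, 6.98 and 5.91 in the tumours. Tumour 4 was far below the other tumours, which lay among or just below the controls. Mrps34 had a change of -0.24 (adjusted p = 0.184). For Mrps6, Mrps7, Mrps24 and Mrps33 the changes lay between -0.02 and 0.04. Second probe sets of Mrps5 and Mrps33 gave 0.25 and 0.13.

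By the current nomenclature, which marks proteins with a bacterial counterpart, 19 of 30 large-subunit genes with a bacterial counterpart rose (median log2 change 0.46), as did 8 of 18 without one (0.43). In the small-subunit list 5 of 16 genes with a bacterial counterpart rose (median 0.18, none by 2-fold or more). Of those without one 8 of 13 rose (median 0.68), and 4 of them, Mrps25, Mrps26, Mrps30 and Mrps36, by at least 2-fold. The Mrps30 protein sits in the large subunit and the Mrps36 protein has been assigned to another complex. The classes were not recounted without these genes. The nomenclature puts Mrps18a and Mrps18b among those without a bacterial counterpart, although they descend from a bacterial protein. Counted by descent, which was done after seeing the data, 5 of 18 (median 0.28) and 8 of 11 (median 0.78) rose. These counts are a description, and the difference between the classes was not tested. Counting Mrps30 and Mrps18a with the large subunit, where their proteins sit, gave 28 of 50 and 12 of 27 genes that rose.

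The members shared a pattern within each group, parts of which were also seen in related lists. Averaged over the 77 members, control livers 1 to 4 read 8.04, 8.02, 8.13 and 8.21, and tumours 1 to 4 read 8.78, 8.45, 8.69 and 8.36. Every tumour mean was thus above every control mean, with tumour 1 highest and tumour 4 lowest, while the mean over all genes was within 6.66 to 6.70 on the 8 arrays. Tumour 4 was the lowest of the tumours for 46 members (59.7%), where this held for 24.5% of all genes. Tumour 1 was the highest for 46 (59.7%, against 21.8%), and control liver 4 was the highest of the controls for 40 (51.9%, against 22.6%). Tumour 4 was also the lowest tumour for 70.4% of respiratory chain genes and 51.9% of cytosolic ribosomal protein genes. Control liver 4 was the highest control for 40.7% and 59.6% of these. Tumour 1 was the highest tumour for only 19.8% and 28.8% of them, and tumour 3 for 64.2% and 59.6%.

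Tumour 4 lay a median of 0.24 below the mean of the other tumours over the members, where over all genes it lay 0.07 above. Control liver 4 lay 0.14 above the mean of the other controls, where over all genes it lay 0.03 below. Both held for 46 members (59.7%, against 23.0% of all genes), and across the 77 genes the deviations of these 2 arrays had a Pearson correlation of -0.65, against -0.32 across all genes. The points are genes read on the same arrays and are not independent. Leaving out tumour 4 raised the genes called higher to 31 large and 17 small, adding Mrpl37, Mrpl41, Mrpl51, Mrpl54, Mrps5, Mrps17, Mrps18b and Mrps23. Leaving out control liver 4 gave 28 and 13, and leaving out tumour 3, the lowest count, 19 and 13. The weights that limma gives to arrays by how well they fit their group were lowest for tumour 4, at 0.43, and lay between 0.84 and 2.23 for the other 7 arrays. The interquartile range of all values on an array had the same order within each group as the member means. It was 2.15, 2.04, 2.18 and 2.25 in control livers 1 to 4. In tumours 1 to 4 it was 2.42, 2.28, 2.36 and 2.09, so that tumours 1, 2 and 3 were also wider than every control liver. The part of array spread or array quality in this pattern, or in the changes between the groups, was not tested.

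**Figure D4:**
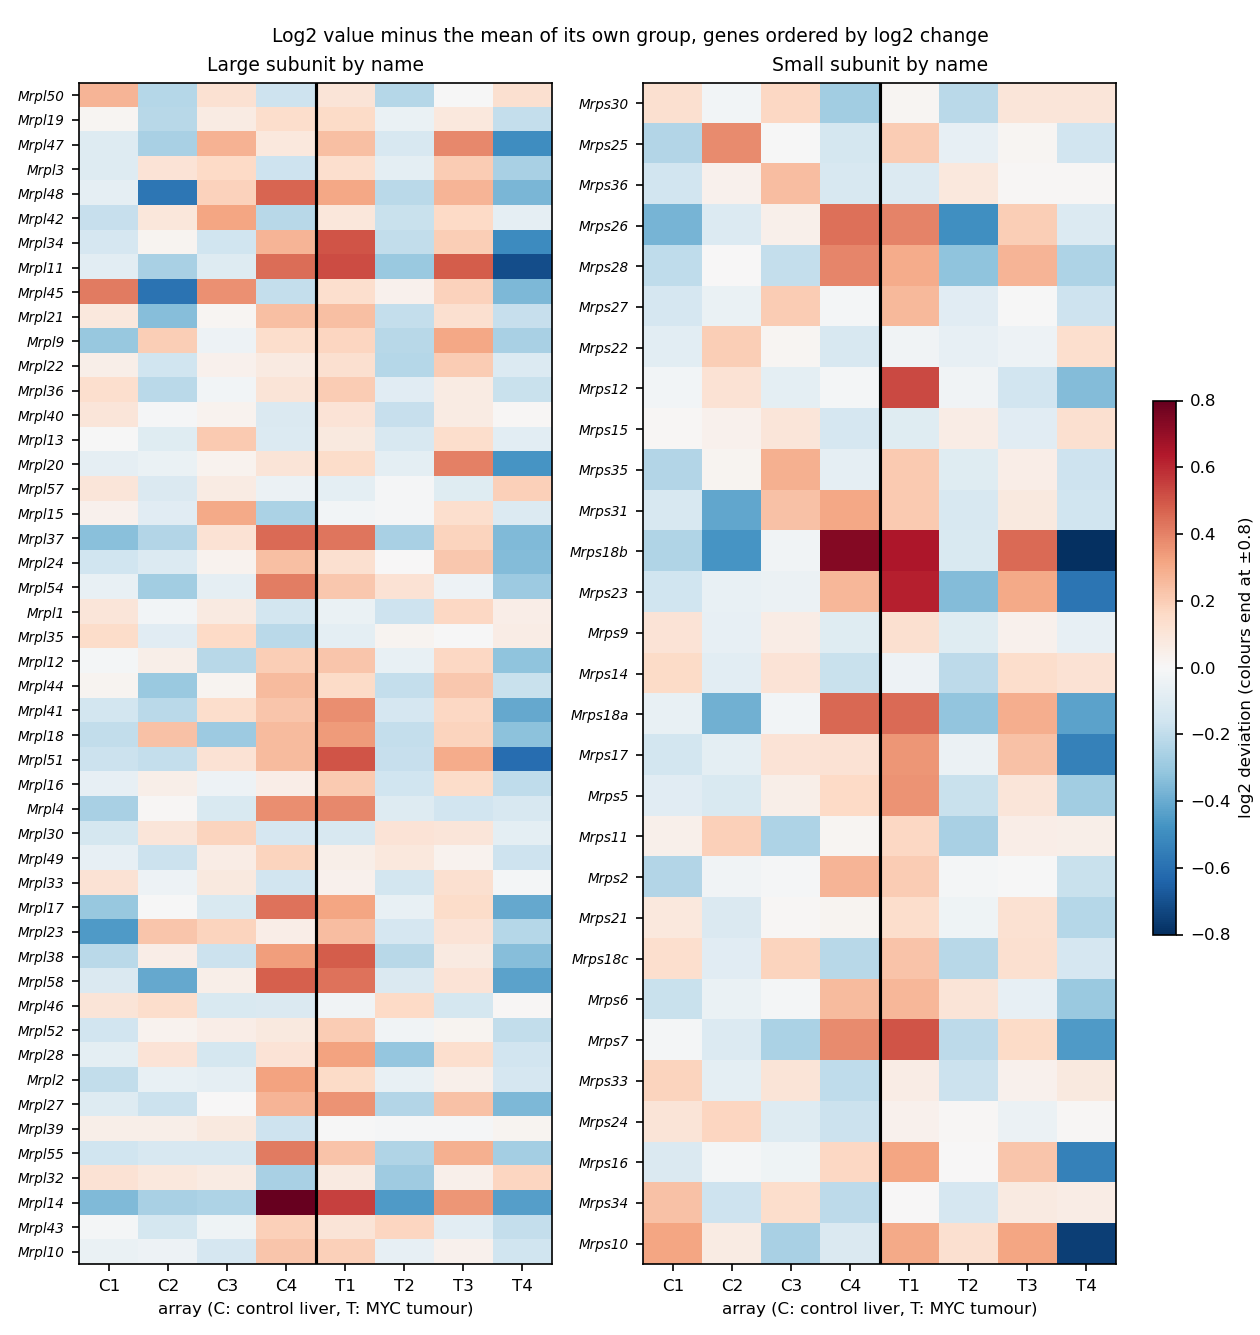
Log2 value of each member minus the mean of its own group of 4 arrays (colour, with the scale ending at ± 0.8), for control livers (C1 to C4) and tumours (T1 to T4), with genes ordered by log2 change. Tumour 4 is the lowest tumour for 46 of the 77 genes and control liver 4 the highest control for 40.

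Related genes were taken from lists of known function, and the share that rose is read beside the 16.2% of all genes that rose and 12.7% that fell. Genes for mitochondrial ribosomal proteins that carry other names rose in all 4 cases measured, with a median of 0.82. These were Ptcd3, a small-subunit protein with pentatricopeptide repeats (log2 change 1.57, SE 0.18), Dap3, the GTP-binding protein of the small subunit (0.93, SE 0.13), Chchd1 (0.71, SE 0.11) and Gadd45gip1 (0.41). With 1 array left out, 3 to 4 of them were called higher. Of 33 assembly factors of the mitochondrial ribosome, 5 rose (15.2%) and 2 fell (6.06%), with a median of 0.15, so the share that rose was near that of all genes. Noa1, a GTPase of small-subunit assembly, rose 4.28-fold (log2 change 2.10 with SE 0.15, limma adjusted p = 2.32e-06), more than any member. Fastkd2 (1.30), an RNA-binding protein, and Gtpbp10 (1.14), a GTPase of large-subunit assembly, rose by at least 2-fold as well. Clpx, the unfoldase of the mitochondrial Clp protease, had a log2 change of -0.72 with overlapping groups, and its call was lost when any array other than control liver 1 was left out (adjusted p up to 0.106).

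Of 20 measured translation factors and their helpers, 8 rose (40.0%) and 1 fell, with a median of 0.25. Guf1, an elongation factor that acts on stalled ribosomes (1.02, SE 0.13), Slirp, which stabilises mitochondrial messenger RNA with Lrpprc (0.78), and Mtres1 (0.75) led, and Metap1d, which removes the initiator methionine, fell by 0.50. Of 18 measured mitochondrial aminoacyl-tRNA synthetases 8 rose (44.4%) and none fell (11 and 1 at an unadjusted p below 0.05). The largest rises were those of Gars (1.53) and Kars (1.38), whose products also serve the cytosol, and of Yars2 (1.34), which serves mitochondria. Without Gars and Kars, 6 of 16 rose, with a median of 0.30.

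Of 25 measured genes of mitochondrial DNA transcription, RNA processing and upkeep, 14 rose (56.0%) and 1 fell, with a median of 0.42. Pnpt1, an exoribonuclease (1.33), Trmt10c, a subunit of mitochondrial RNase P (1.01), and Tfam, which packages mitochondrial DNA (0.98), were the largest rises. Ppargc1a, a coactivator of mitochondrial genes, had a change of -1.42 with overlapping groups, and its call was lost when any of 5 arrays was left out (adjusted p up to 0.0958 in limma). No mitochondrially encoded gene was measured by a probe set of its own among the 15 sought, so the RNA that the ribosome translates was not analysed here.

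Nuclear-encoded subunits of the respiratory chain and ATP synthase had the lowest median of these lists, 0.11, with 14 of 81 higher (17.3%, near the share of all genes) and 6 lower (7.41%). Sdhd of complex II (1.12, SE 0.31), Atp5o of ATP synthase (0.70, SE 0.16) and Cox6b2 of complex IV (0.60, SE 0.15) were the largest rises, and Ndufa1 of complex I fell by 0.88 (SE 0.12). Cox6b2 was dim, with a mean of 6.26 in controls where the median of this list was 9.72. Sdhd lost its call when tumour 1, tumour 3, control liver 1 or control liver 2 was left out (adjusted p up to 0.0630 in limma). By complex, 3 of 34 complex I genes rose and 5 fell, while 5 of 17 ATP synthase genes rose and none fell. These counts depended on single arrays. The number higher was 7 without tumour 1, 6 without tumour 3 or control liver 1, 9 without control liver 2 or 3 and 20 without tumour 4. The number lower was 3 without tumour 1 and 2 without control liver 2.

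Genes for proteins of the cytosolic ribosome rose in 50 of the 52 cases measured by a probe set with 1 symbol. None was lower, the median log2 change was 1.00, and 27 rose by at least 2-fold. The largest rises were those of Rpl14 (2.34, SE 0.23), Rplp0, the base of the cytosolic stalk (1.79, SE 0.24), and Rps10 (1.71, SE 0.41, groups overlapping). Beside the medians of 0.44 and 0.57 for the mitochondrial subunits, the cytosolic list had the higher median and count, and the difference between the lists was not tested.

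**Figure D5:**
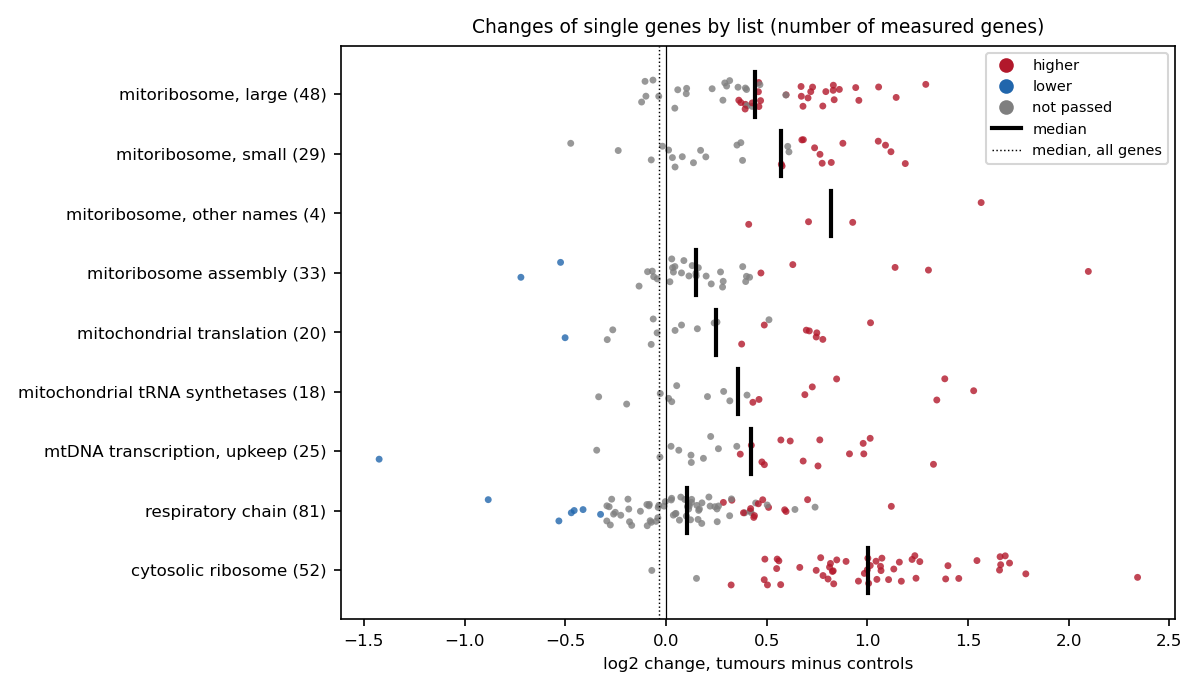
Log2 change (tumours minus controls, x axis) of each gene in 9 lists (y axis, with the number of genes measured), coloured by call in limma, with a bar at each list's median and a dotted line at the median of all genes (-0.04). Medians run from 0.11 for the respiratory chain to 1.00 for the cytosolic ribosome, with the mitochondrial subunits at 0.44 and 0.57.

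Markers of other liver cells differed between the groups beside these changes. Endothelial markers had list means of 7.40 to 7.96 in controls and 6.63 to 7.01 in tumours, with 3 of 5 lower. Stellate cell and fibroblast markers had 7.87 to 8.25 and 6.78 to 7.41, also with 3 of 5 lower. Among 5 Kupffer cell and macrophage markers, Clec4f and Vsig4 were lower and Cd68 higher, with list means of 7.77 to 8.76 and 7.46 to 8.07. Among 4 bile duct markers Epcam was higher and Sox9 lower (6.08 to 6.21 and 6.06 to 6.46). No marker of T, B and NK cells passed, with 5 measured at list means of 5.16 to 5.84 and 5.17 to 5.48, and neither did the 2 measured red cell precursor markers. Their part in the changes of the ribosomal genes was not tested.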

How the data were processed

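Each of 8 arrays read, in 1 colour, the total RNA of 1 sample, a control liver (4) or a MYC tumour (4). The deposited log2 values cover 34760 probe sets and were made by the authors with RMA, which corrects background, normalises between arrays and summarises probes, in R 3.0.2, per the submitters' processing notes. They were used as deposited. Probe sets with several gene symbols (1321) or no gene (11799) were set aside. Symbols were updated by gene identifier through a RefSeq table for 21553 of the other 21640. For genes with several probe sets (954, among them 8 members) the one with the highest mean over all 8 arrays was kept. Groups were compared over 19937 genes by limma 3.58.1 (lmFit, eBayes, R 4.3.3) on group alone, with Benjamini-Hochberg adjustment and a threshold of 0.05. Errors are SD over 4 arrays or SE from limma. The number of arrays limits the precision. No gene was filtered out for low signal.

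The members, the lists of related genes, the motifs and the rule for named genes were chosen with earlier results of these data known. The named members are the 8 largest rises per subunit without overlap, every member that did not pass (12 per subunit by size, the rest by range), Mrps30 and the Mrps18 genes. From each list come the 3 largest changes in its more frequent direction and the largest in the other. The remaining called members are listed by name with their range. The alternatives changed the scaling (quantile normalisation, or array medians subtracted), the genes (without the dimmest 33.3%), the variance (a trend with robust fitting, or array weights), the design (a replicate block), the probe sets (averaged per gene), the names (platform symbols) and the arrays (each left out in turn). The script was tested on simulated data. Python 3.11.15, pandas 2.3.3 and matplotlib 3.10.9 made the tables and figures.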

Additional observations from a re-analysis of the deposited data

Results flagged for a closer look

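In a group of 4 arrays, a highest or lowest value whose gap to the nearest other array is large for the group's range was looked for in all 77 members and both groups. It was found in 6 of 154 groups, where chance alone gives about 1 in 20, or 7.7, and 4 of the 6 concerned control liver 4. Control liver 4 was high for Mrpl14 (8.66, the other controls 7.45 to 7.56) and Mrpl55 (8.55, others 7.97 to 8.0), neither of which passed the test. It was low for Mrpl32 (7.97, others 8.30 to 8.35) and Mrpl39 (10.81, others 11.03 to 11.06), which did not pass either. Tumour 1 was high for Mrpl4 (8.14, the other tumours 7.61 to 7.66). Control liver 2 was low for Mrpl22 (6.84, the other controls 7.03 to 7.07), a gene that rose with no overlap.

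A second probe set of Mrps36, which the comparison did not use, carried a signal of its own, with controls of at most 8.75 and tumours of at least 9.50. Its log2 change was 1.12, close to that of the probe set used.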

How the results depend on the processing

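Of the 40 calls, 32 (19 large, 13 small) held under 8 other settings and with each of 8 arrays left out, and no called member reversed. No member was called lower in any of them. Large-subunit genes higher numbered 19 to 31 with 1 array left out and small-subunit genes 13 to 17, with medians of 0.39 to 0.54 and 0.40 to 0.61. There was no sign that replicate numbers pair the samples (correlations of same-numbered deviations -0.06, 0.005, 0.05 and -0.32). Differently numbered arrays gave -0.22 to 0.31, and such values cannot exclude pairing. With replicate numbers as a block 21 large and 13 small genes were higher and 5007 of all genes were called. Respiratory chain genes higher then fell to 9 and translation factors higher to 5. Array weights gave 33 large and 17 small genes, and 8 assembly factors higher. Quantile normalisation gave 24 large and 13 small genes higher, with median log2 changes of 0.38 and 0.49. It also gave 9 respiratory chain genes higher and 10 lower, 2 genes of mitochondrial DNA upkeep lower and 1 tRNA synthetase lower. The variance trend gave 0 genes of mitochondrial DNA upkeep lower.

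With 1 array left out, respiratory chain genes numbered 6 to 20 higher and 2 to 6 lower, and those lower numbered 1 to 2 for assembly, 0 to 1 for mitochondrial DNA upkeep, 1 to 3 for translation factors and 0 to 1 for tRNA synthetases. Some members that did not pass changed sign. Array weights gave Mrpl14 0.077, Mrpl55 0.084, Mrps16 0.061 and Mrps33 -0.00021, the mean of probe sets Mrpl27 -0.071, and quantile normalisation Mrpl27 -0.0090, Mrps6 -0.043, Mrps7 -0.040 and Mrps33 -0.085. With 1 array left out the ranges were -0.28 to 0.19 for Mrpl14, -0.062 to 0.18 for Mrpl27, -0.0054 to 0.20 for Mrpl28, -0.15 to 0.030 for Mrpl32, -0.012 to 0.069 for Mrpl39, -0.13 to 0.10 for Mrpl55, -0.043 to 0.14 for Mrps6, -0.14 to 0.18 for Mrps7, -0.18 to 0.11 for Mrps16, -0.074 to 0.039 for Mrps24 and -0.055 to 0.072 for Mrps33. The causes were not tested. Leaving out Mrps36 was chosen after seeing the data. Other settings moved the median of all genes to between -0.07 and 0.01, and calls that were higher made up 53.5% to 58.1% of all calls.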

Other observations

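In the promoter windows of the 68 members that had one, the median GC content was 56.3% for the 35 that rose and 62.0% for the 33 that did not pass. Over all tested genes with a window the order was the other way, with 61.3% for genes that were higher, 56.3% for those that did not pass and 57.1% for those that were lower. Across genes, GC content and log2 change had a Pearson correlation of -0.41 for the members and 0.14 for the 15613 tested genes. Genes are not independent replicates and all share the same 8 arrays, so these values are a description.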
